A study of Mus musculus with 2 samples.

Results

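The collagen genes are the 44 genes, of 27998 in the count matrices, whose symbol reads Col, a number, the letter a and a number. They were chosen by symbol alone, and 37 of them had at least 10 unique molecular identifiers (UMIs, each marking 1 captured RNA molecule) over both libraries. The 7 below that minimum are given by their UMIs only: Col17a1 had 8, Col28a1 had 7, Col2a1 and Col6a5 had 3 each, Col6a4 had 2, Col9a2 had 1 and Col10a1 had 0. Just above it lay Col8a2 with 12 UMIs and Col9a3 with 15.

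Nuclei of the gastrocnemius-plantaris (GP) muscle of the mouse hindlimb were profiled by single-nucleus RNA sequencing (snRNA-seq) in 2 libraries, 1 of control (Ctrl) and 1 of conditional knockout (cKO) mice. The mice of both groups had the strain background B6C3F1, were homozygous for a floxed Net39 allele (Net39 fl/fl), received tamoxifen and were 5 months old, 3 months after tamoxifen. Ctrl mice carried no Cre, while cKO mice carried HSACreERT2, a tamoxifen-dependent Cre under the human skeletal actin promoter, which is active in muscle fibres and, per the study's methods, not in satellite cells. Net39 is a membrane protein of the nuclear envelope of muscle, and its gene is listed as Plpp7. Each library pooled 3 muscles, no nucleus can be traced to an animal, and the groups have no replicates. No test between the groups was therefore possible, and every interval below is a 95% interval that covers counting error only. Where values stand in pairs, Ctrl comes first and cKO second, and brackets after them give the log2 ratio of cKO over Ctrl and its interval.

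Collagens are proteins of the extracellular matrix in which chains wind into a triple helix, and each chain carries long runs of Gly-X-Y, a repeat that places the smallest amino acid, glycine, at the core of the helix. Types I, III and V build the fibrils that connect muscle fibres and are made mainly by fibroblasts and fibro-adipogenic progenitors (FAPs), the mesenchymal cells between the fibres. Type IV forms the sheet of the basement membrane around fibres and vessels, type VI forms beaded microfibrils beside it, and several minor collagens sit at the tendon end of the fibre or at the nerve contact, where the fibre's own nuclei make them.

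The runs differ in length between families, and short coding stretches are shown for 9 members that the results turn on, so that the repeat can be seen. They are exonic, from the coding sequence of GENCODE M21 on GRCm38, 5′ to 3′ on the coding strand. Each is the first 21 codons of the gene's longest run, and capitals mark the glycine codon that opens each Gly-X-Y triplet. Glycine codons at X or Y, as in Col3a1, are in lower case.
Col3a1: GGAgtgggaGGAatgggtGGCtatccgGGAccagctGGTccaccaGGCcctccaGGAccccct
Col1a2: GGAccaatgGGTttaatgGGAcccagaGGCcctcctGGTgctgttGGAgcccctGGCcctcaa
Col4a1: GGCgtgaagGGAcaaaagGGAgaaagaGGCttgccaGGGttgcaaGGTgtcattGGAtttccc
Col4a3: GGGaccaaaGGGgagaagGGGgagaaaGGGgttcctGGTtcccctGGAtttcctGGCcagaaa
Col22a1: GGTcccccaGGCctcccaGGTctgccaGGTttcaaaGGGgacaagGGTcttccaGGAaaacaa
Col24a1: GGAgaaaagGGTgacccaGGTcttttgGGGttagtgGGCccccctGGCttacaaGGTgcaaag
Col19a1: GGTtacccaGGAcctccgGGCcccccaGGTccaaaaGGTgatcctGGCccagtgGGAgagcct
Col13a1: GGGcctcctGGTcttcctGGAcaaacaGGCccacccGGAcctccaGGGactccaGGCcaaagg
Col25a1: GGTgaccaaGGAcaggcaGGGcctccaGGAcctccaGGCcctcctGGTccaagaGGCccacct

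In the fibril-forming types I, II, III, V and XI the longest run held 337 to 344 triplets without a break. It held 216 in Col24a1 and 217 in Col27a1, the shorter fibrillar type. In the 6 type IV genes the longest run held 39 to 66 triplets and the repeat was broken into 22 to 27 runs of at least 5 triplets. Col22a1, a fibril-associated collagen of tissue junctions, reached 113 triplets, Col19a1 57 in 11 runs, and the membrane-anchored Col13a1 and Col25a1 44 and 40.

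Col3a1 lies at chr1:45311538-45349706 on the plus strand, with Col5a2 24.6 kb away on the other strand. Col4a1 (chr8:11198423-11312826, minus strand) and Col4a2 (chr8:11312805-11449287, plus strand) start head to head and overlap by 22 bases. Col4a4 (chr1:82448423-82586849, minus strand) and Col4a3 (chr1:82586921-82722059, plus strand) start 71 bases apart, and Col4a6 and Col4a5 on chromosome X start 1308 bases apart. Col19a1 (chr1:24261890-24587472, minus strand), Col13a1 (chr10:61838236-61979108, minus strand), Col25a1 (chr3:130131501-130599877, plus strand), Col22a1 (chr15:71795795-72034227, minus strand) and Col24a1 (chr3:145292472-145552011, plus strand) span 325583, 140873, 468377, 238433 and 259540 bases from end to end. The counts were made with the default settings of Cell Ranger 3.1.0, which count exonic reads, and whether the reference had been changed to take in introns is not stated, so UMIs per gene are compared between libraries and classes of nuclei and not between genes.

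The nuclei used numbered 3526 in Ctrl with 8930961 UMIs and 3595 in cKO with 7237405 UMIs, with a median of 2040.5 and 1611 UMIs per nucleus, and 4 barcodes occurred in both libraries. Malat1, a nuclear RNA, made up 25.6% and 30.7% of the UMIs. Plpp7 was at 47.9 CPM (counts-per-million, the UMIs of a gene scaled to the total UMIs of the same nuclei) in Ctrl and 41.0 in cKO (log2 ratio −0.22, −0.44 to −0.01). The assay reads the 3′ end while the deletion removes the first exon, so that level does not check the label. The study itself reported lower Net39 RNA in bulk RNA sequencing of cKO GP muscle and loss of the protein by Western blot of cKO quadriceps. Nuclei were clustered without the collagen genes and named from marker lists that hold no collagen, so collagen levels neither formed nor named the classes. The ending "-like" marks such a name. The FAP-like cluster had 13 of 13 FAP markers detected, the vascular-like cluster 16 of 19 endothelial and mural markers, the myotendinous-like cluster 6 of 8, the neuromuscular-like cluster 9 of 10, and "other fibre nuclei" are the remaining fibre clusters. Fibre RNA was counted in every class: 15 fibre genes were at 23903 and 24996 CPM in the FAP-like nuclei.

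Over all nuclei, collagen UMIs were fewer in cKO. The 44 genes together had 9488 UMIs in Ctrl, or 1062 CPM (1041 to 1084), and 4223 UMIs in cKO, or 583 CPM (566 to 601), a log2 ratio of −0.86 (−0.92 to −0.81). Of the 37 members with 10 UMIs or more, 30 had a lower CPM in cKO and 7 a higher one. The level was at least 2-fold lower for 17 of the 37, against 10.1% of the 13975 genes with as many UMIs. None of the 37 was 2-fold higher, against 3.9% of those genes. The median log2 ratio was −0.94 for the members and −0.14 for all genes.

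Lower levels were spread over the fibrillar, basement membrane and microfibril types. Types I and III (Col1a1, Col1a2 and Col3a1), the chains of the main interstitial fibrils, were at 217 CPM in Ctrl and lower, at 55.0, in cKO, a log2 ratio of −1.98. Col4a1 and Col4a2, the chains of the common basement membrane network, were at 114 in Ctrl and lower, at 44.5 CPM, in cKO (−1.36). Col6a1, Col6a2 and Col6a3, the classical type VI chains, were at 90.2 in Ctrl and lower, at 28.5 CPM, in cKO (−1.66). Other members did not follow. Col7a1, the anchoring fibril collagen, was at 110 CPM in Ctrl and 115 in cKO (log2 0.07, −0.07 to 0.20). Col4a3 and Col4a4 together were at 17.2 and 18.8 CPM (log2 0.12, −0.22 to 0.47). Col19a1, a fibril-associated collagen, was at 23.5 in Ctrl and higher, at 46.3 CPM, in cKO (log2 0.98, 0.72 to 1.23).

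The nuclei that held the collagen UMIs differed between the libraries. FAP-like nuclei were 311 of 3526 nuclei in Ctrl, or 8.82% (7.90 to 9.80), and 142 of 3595 in cKO, or 3.95% (3.34 to 4.64). They held 51.6% (50.6 to 52.6) of collagen UMIs in Ctrl and 30.3% (28.9 to 31.7) in cKO. Other fibre nuclei held 30.4% in Ctrl and 46.1% in cKO. Vascular-like nuclei held 6.31% and 4.48%, myotendinous-like nuclei 6.11% and 8.55%, and neuromuscular-like nuclei 2.69% and 8.83%. The difference of −479 CPM between the libraries was split into a part from the share of UMIs in each class and a part from the level within classes. Class shares accounted for −241 CPM and levels for −238 CPM, of which −149 lay in FAP-like nuclei and −74.0 in other fibre nuclei. Nuclei were sorted and mixed from 3 muscles per library, and whether the tissue held fewer FAPs cannot be told apart from their recovery.

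**Figure D1:**
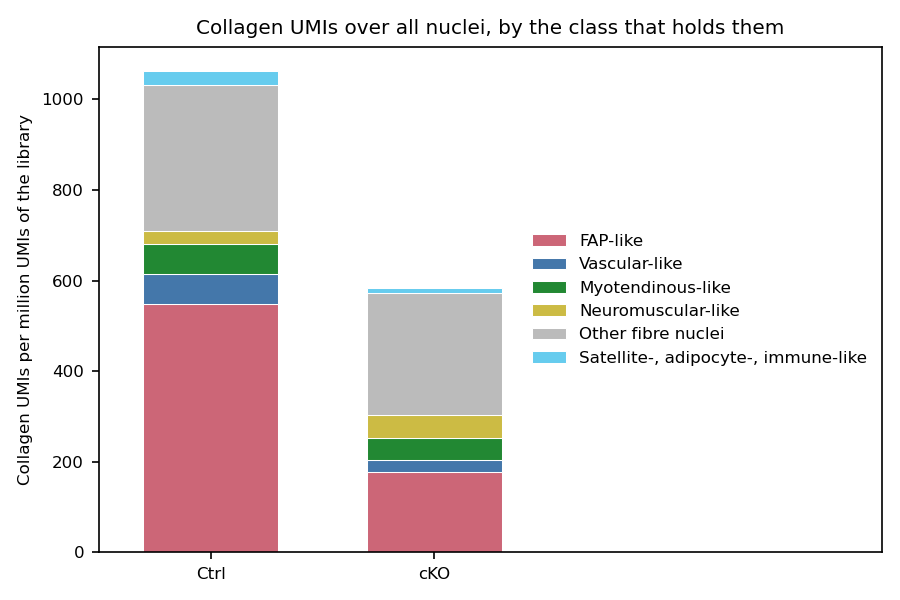
Collagen level in CPM of each library (vertical axis), stacked by class of nuclei, for Ctrl and cKO (1 library each, no error bars). The FAP-like part is the largest in Ctrl, with 51.6% of the collagen UMIs, and in cKO it is smaller than the part of other fibre nuclei, with 30.3% against 46.1%.

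The class with the highest level over both libraries, among the classes that held at least 5 UMIs of the gene, differed between members. Of the 37, 19 were highest in FAP-like nuclei: the fibrillar Col1a1, Col1a2, Col3a1, Col5a1, Col5a2, Col5a3, Col11a1, Col11a2 and Col27a1, the type VI chains Col6a1, Col6a2, Col6a3 and Col6a6, the network-forming Col8a1 and Col8a2, and the fibril-associated Col12a1, Col14a1, Col16a1 and Col20a1. For Col11a2 the rank lay within counting error, at 23.1 CPM against 17.4 in other fibre nuclei (1.33-fold, 0.79 to 2.12), which held 86.7% of its UMIs. Col22a1 and Col24a1 were highest in myotendinous-like nuclei. Another 8 were highest in neuromuscular-like nuclei: Col4a3, Col4a4, Col4a5, Col13a1, Col19a1, Col23a1, Col25a1 and Col26a1. Col4a1, Col4a2, Col15a1 and Col18a1 were highest in the 16 adipocyte-like nuclei, Col4a6 in vascular-like nuclei, Col9a1 and Col9a3 in other fibre nuclei, and Col7a1 in the 32 satellite-like nuclei, which held 8 of its UMIs. Classes with fewer UMIs had a higher CPM for 4 of these: Col16a1 (47.2 CPM in adipocyte-like nuclei, against 32.8 in FAP-like), Col4a6 (34.8 in satellite-like, against 16.3 in vascular-like) and Col9a1 (21.3 in immune-like, against 11.3 in other fibre nuclei), each from 2 UMIs, and Col9a3 (3.64 in FAP-like from 3 UMIs, 5.91 in neuromuscular-like and 10.6 in immune-like from 1 each, against 0.718 in other fibre nuclei). Among classes with at least 5 UMIs over both libraries, the same class was highest in each library for 29 of the 37, and for 8 it was not. Some of the 29 rest on fewer UMIs within a library. In cKO, Col7a1, Col16a1 and Col8a2 had 2 UMIs each in their class, and Col18a1 had 3 in Ctrl and 2 in cKO. In Ctrl, Col23a1 was at 104 CPM in FAP-like and at 45.2 in neuromuscular-like nuclei, and Col4a5 at 68.4 and 56.4. Col5a3 (757 CPM from 16 UMIs) was then highest in adipocyte-like nuclei and Col12a1 (126 CPM from 6 UMIs) in satellite-like nuclei. In cKO, Col4a1 was at 301 CPM in FAP-like nuclei and at 236 in adipocyte-like nuclei (5 UMIs), Col4a2 at 234 and 94.2 (2 UMIs), while Col5a1 was highest in adipocyte-like nuclei (236 CPM from 5 UMIs) and Col4a6 in FAP-like nuclei (4 UMIs). The level and the number of UMIs did not always point to the same class, since other fibre nuclei are many. They held the most UMIs of 10 members, among them Col7a1, Col13a1 and Col19a1, and FAP-like nuclei those of 23.

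**Figure D2:**
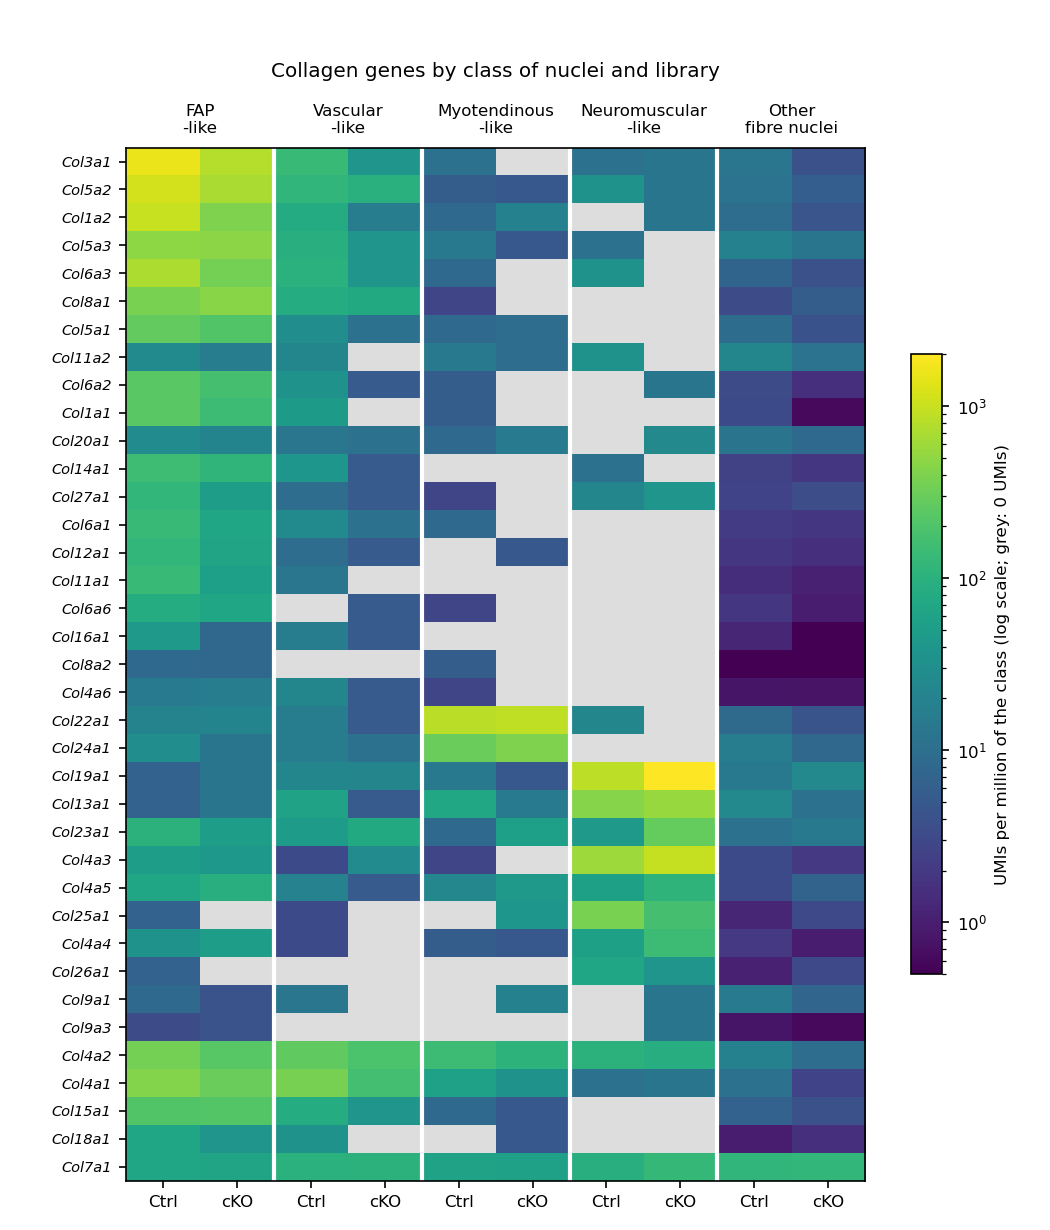
Level of the 37 collagen genes (rows, ordered by the class with at least 5 of their UMIs in which they were highest) in 5 classes of nuclei and both libraries (columns), as CPM within the class on a log colour scale, with grey for 0 UMIs. The type I, III, V and VI genes are brightest in the FAP-like columns, Col22a1 and Col24a1 in the myotendinous-like columns, Col19a1, Col4a3, Col13a1 and Col25a1 in the neuromuscular-like columns, while Col7a1 has a similar colour in all 10 columns.

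In FAP-like nuclei the collagens were lower in cKO while the summed markers of the class were not. All 44 genes together had 8369 CPM (8137 to 8607, 4895 UMIs) for Ctrl and 5348 CPM (5059 to 5649, 1280 UMIs) for cKO, a log2 ratio of −0.65 (−0.74 to −0.56), or −0.42 with the removed doublets kept. The 13 FAP markers had 6571 CPM in Ctrl and 6931 in cKO (log2 0.08, −0.01 to 0.16), but singly they went both ways. Pdgfra, a defining receptor among them, was at 333 and 180 CPM (−0.89, −1.40 to −0.41). Dcn, Lum, Abca8a, Bicc1 and Smoc2 were also lower in cKO. Fbn1, the marker with most UMIs, was higher, at 1597 and 2185 CPM, as were Gsn, Dpt, Tnxb, Mfap5, Pi16 and Dpp4. The makeup of the FAP-like nuclei may thus have differed, and its part in the results was not tested. The median depth of the nuclei was close, at 1310 and 1312 UMIs. Of 30 members with 10 UMIs or more there, 24 were lower in cKO and 6 higher, with a median of −0.57 against −0.03 for the 8013 genes with as many UMIs. At least 2-fold lower were 7 of the 30, against 10.5% of those genes, and at least 2-fold higher none, against 6.4%.

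The chains of types I and III all had ratios below the median member of −0.57. Col3a1, the chain of type III, was at 1547 CPM (188 of 311 nuclei with a UMI) for Ctrl and 785 CPM (78 of 142) for cKO, a log2 ratio of −0.98 (−1.21 to −0.75). Col1a2, the second chain of type I, was at 985 and 401 CPM (−1.30, −1.62 to −0.98). Col1a1, which contributes the other type I chains, was at 241 and 146 CPM (−0.72, −1.30 to −0.18). In other fibre nuclei, where free RNA can also be counted, Col3a1 was at 13 CPM in Ctrl and 3.86 in cKO, or 0.84% and 0.492% of its FAP-like level. Of the 13 FAP markers, 11 stood there at 0.722% to 3.18% of their FAP-like levels in Ctrl and at 0.469% to 2.54% in cKO. The other two were higher, Bicc1 at 10.7% and 8.58% and Smoc2, which is among the leading genes of a fibre cluster, at 14.7% and 25.9%.

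Type V, which sets fibril width, was divided. Col5a2 was at 1137 in Ctrl and lower, at 698 CPM, in cKO (−0.70, −0.96 to −0.46), whereas Col5a3 was at 496 and 476 CPM (−0.06, −0.38 to 0.26) and Col5a1 at 275 and 213 CPM (−0.37, −0.85 to 0.09). The minor fibrillar Col11a1 was at 140 in Ctrl and lower, at 54.3 CPM, in cKO (−1.37, −2.34 to −0.52) and Col27a1 at 120 and 50.1 CPM (−1.26, −2.27 to −0.36). These low counts give wide intervals: Col11a1 had 82 UMIs in 30 Ctrl nuclei and 13 UMIs in 5 cKO nuclei.

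Type VI chains assemble as Col6a1, Col6a2 and another chain, usually Col6a3. Col6a3 was at 711 in Ctrl and lower, at 355 CPM, in cKO (−1.0, −1.36 to −0.66) and Col6a1 at 132 and 66.8 CPM (−0.98, −1.85 to −0.19). Col6a2 was at 236 and 171 CPM (−0.46, −1.0 to 0.05), and Col6a6, an alternative to Col6a3, at 83.8 and 66.8 CPM (−0.33, −1.24 to 0.51). The basement membrane chains were also lower in cKO, Col4a1 at 431 and 301 CPM (−0.52, −0.92 to −0.14) and Col4a2 at 359 and 234 CPM (−0.62, −1.07 to −0.19). Col4a5 (68.4 and 91.9 CPM), Col4a3 (51.3 and 41.8 CPM) and Col4a4 (35.9 and 50.1 CPM) had intervals that held 0.

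Other members were closer to 0 or had wide intervals. Col8a1, a network-forming collagen of vessel walls, was at 381 CPM in Ctrl and 460 in cKO (0.27, −0.07 to 0.61). Col15a1, which links the basement membrane to the matrix, was at 209 and 217 CPM (0.06, −0.44 to 0.54), and Col14a1, which binds fibril surfaces, at 150 and 113 CPM (−0.42, −1.10 to 0.22). Lower in cKO were Col12a1, Col16a1 and Col23a1. The fibril-associated Col12a1, known from tendon and fascia, was at 123 in Ctrl and lower, at 62.7 CPM, in cKO (−0.97, −1.88 to −0.16), and Col16a1 had 25 UMIs in Ctrl and 2 in cKO (−2.35, −5.48 to −0.35). Col23a1, a membrane collagen, was at 104 and 50.1 CPM (−1.06, −2.09 to −0.15), and at 50.6 and 50.9 CPM in the nuclei without a tenocyte marker UMI described next. Col18a1, the source of endostatin, was at 66.7 and 37.6 CPM (−0.83, −2.06 to 0.24).

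Markers of tendon cells moved with the collagens in these nuclei. The 9 tenocyte markers, such as Thbs4, Mkx and Tnmd, were together at 436 and 196 CPM (−1.15, −1.63 to −0.70), with 7 of the 9 seen in Ctrl and 5 in cKO. Scx, a defining tendon factor, had 1 UMI in Ctrl and 0 in cKO, and Chad was at 0 in both libraries. In Ctrl, 53 FAP-like nuclei held at least 1 tenocyte marker UMI, and in cKO 11 did. Their median depth was 1768 and 1918 UMIs, against 1237.5 and 1194 in the other FAP-like nuclei. The 53 nuclei held 1901 of the 4895 collagen UMIs at 12680 CPM, and the 11 nuclei held 142 of 1280 at 6056 CPM. They held 55.2% of the type I and III UMIs in Ctrl and 14.4% in cKO, and 89.0% of those of Col11a1 and 76.4% of those of Col12a1 in Ctrl. In Ctrl the UMIs were also unevenly shared, since 18 of the 311 nuclei held 50% of the type I and III UMIs and 1 nucleus held 10.6% of them.

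Without the nuclei that held a tenocyte marker UMI, the ratio was closer to 0. The other FAP-like nuclei, 258 in Ctrl and 131 in cKO, had 6884 CPM (6639 to 7135) for Ctrl and 5271 CPM (4969 to 5586) for cKO of collagen, a log2 ratio of −0.39 (−0.48 to −0.29). Types I and III were then at 1671 and 1264 CPM (−0.40, −0.61 to −0.20), where they had been at −1.06 (−1.23 to −0.88) in all FAP-like nuclei. Of 29 members, 23 were lower and 6 higher, with a median of −0.33 against −0.01 for all genes, and 2 were at least 2-fold lower, against 9.13% of genes. Col1a1 was at 126 and 116 CPM (−0.13, −0.87 to 0.58). Col4a1 and Col4a2 together were at 966 and 547 CPM, with a log2 ratio of −0.82, and Col6a1 to Col6a3 at 936 and 630 CPM, at −0.57. Col8a1 was then higher in cKO, at 260 and 412 CPM (0.67, 0.25 to 1.08). The ratio of Col4a1 and Col4a2 was thus no closer to 0 without these nuclei, while that of types I and III was. Immune markers also differed, at 87.2 and 25.1 CPM, and leaving out the nuclei that held one gave −0.67.

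**Figure D3:**
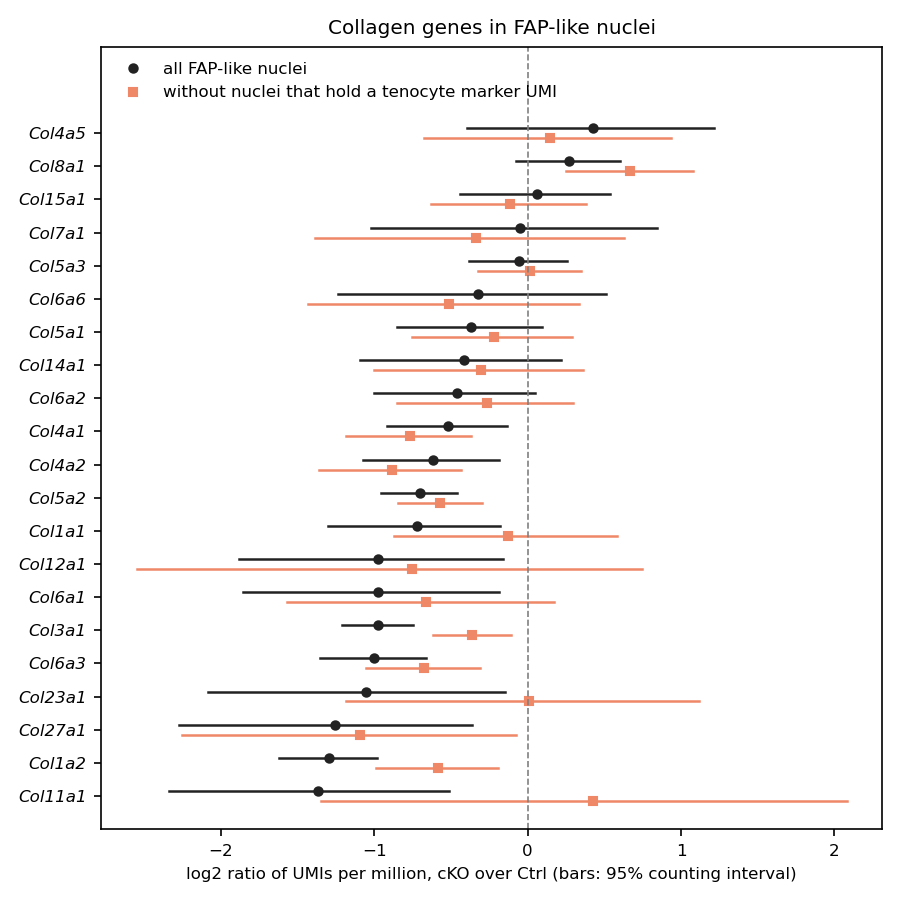
Log2 ratio of CPM, cKO over Ctrl (horizontal axis, bars are 95% counting intervals), for collagen genes in FAP-like nuclei, with circles for all nuclei of the class and squares for those without a tenocyte marker UMI. Col1a2 moves from −1.30 to −0.58 and Col3a1 from −0.98 to −0.36 between circle and square, while the squares of Col4a1 and Col4a2 lie left of their circles.

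Genes that make, modify and bind collagen were read in all FAP-like nuclei, those with a tenocyte marker UMI included. The part of those nuclei in these values, as in those of Postn and Fn1 below, was not tested. The list held 75 genes, of which 61 had 10 UMIs or more. At least 2-fold lower were 15 of the 61 and at least 2-fold higher 4, against 10.5% and 6.4% of all genes, and the median log2 ratio was −0.14. Many of these ratios rest on few UMIs: the counting interval lay below 0 for 9 of the 61 and above 0 for 7. Among 15 genes of chain modification and secretion, such as the prolyl hydroxylases, the median was −0.03, with 3 genes at least 2-fold lower and 0 higher. All 15 intervals held 0. Among 12 genes of trimming and cross-linking the median was 0.01, with 3 at least 2-fold lower and 1 higher, and among 6 measured genes of breakdown it was −0.34, with 1 at least 2-fold lower and 0 higher. The 9 measured fibril partners had a median of −0.34, with 3 at least 2-fold lower and 0 higher. Postn, a matrix protein of tendon and healing tissue, was at 231 in Ctrl and lower, at 29.2 CPM, in cKO (−2.98, −4.32 to −1.90), and Fn1, fibronectin, at 556 and 104 CPM (−2.41, −3.06 to −1.82). By contrast, and named after their values were seen, Fbn1, the microfibril protein fibrillin and itself a FAP marker, was at 1597 in Ctrl and higher, at 2185 CPM, in cKO (0.45, 0.30 to 0.61), and Tnxb, a fibril spacer, at 328 and 476 CPM (0.54, 0.19 to 0.88). Of the 8 measured receptors 3 were at least 2-fold lower and 1 higher, with 2 intervals above 0 and 0 below. The 11 measured signals had a median of −0.10, with 2 at least 2-fold lower and 2 higher. Of the signals, 2 had intervals above 0 and 2 below. Ctgf was at 51.3 in Ctrl and higher, at 134 CPM, in cKO (1.38, 0.62 to 2.15), as was Tgfb1, with 8 and 13 UMIs (1.99, 0.61 to 3.47). Tgfb2 was at 215 in Ctrl and lower, at 91.9 CPM, in cKO (−1.23, −1.95 to −0.57), as was the receptor Pdgfra, given above. Tgfb1 and Tgfb2 were named after their values were seen. The collagen uptake receptor Mrc2 was at 180 in Ctrl and higher, at 292 CPM, in cKO (0.70, 0.25 to 1.15).

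Vascular-like nuclei, 164 in Ctrl and 120 in cKO, held type IV collagen of vessel walls. All collagens together were at 1952 CPM (1799 to 2115) for Ctrl and 1028 CPM (887 to 1185) for cKO. Col4a1 was at 365 in Ctrl and lower, at 169 CPM, in cKO (−1.11, −1.74 to −0.53) and Col4a2 was at 261 and 190 CPM (−0.45, −1.07 to 0.14), so that the pair together had a log2 ratio of −0.80 (−1.23 to −0.39), or −0.44 with the class set by marker UMIs. After thinning each nucleus to 500 UMIs, 30.5% of the Ctrl nuclei held a UMI of the pair (52.4% before thinning) and 15.0% of the cKO nuclei did (28.3% before). In other fibre nuclei, thinned alike, 0.911% and 0.946% did, and the median depths before thinning were 1094.5 and 1144 UMIs in vascular-like and 2128 and 1640.5 UMIs in other fibre nuclei. Of 19 members with 10 UMIs or more, 13 were at least 2-fold lower, with members at 0 set to their bound, against 18.6% of genes, and none was at least 2-fold higher, against 5.67%. The median of all genes in this class was itself −0.26.

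The makeup of the vascular-like nuclei differed in the same direction. The 11 endothelial markers were at 3519 and 2023 CPM (−0.80, −0.97 to −0.63), the 8 mural markers at 1017 and 935 CPM (−0.12, −0.40 to 0.15), and the FAP markers at 964 and 419 CPM (−1.20, −1.58 to −0.84), and 4 of 5 lymphatic markers were detected. Adipocyte markers were also fewer, at 108 and 32.6 CPM (−1.72, −3.27 to −0.45), with 2 of the 7 seen in each library and Plin1, Lep, Cidec, Pck1 and Adrb3 at 0 in both. Tenocyte markers were seen with 12 UMIs for Ctrl and 1 for cKO, while myotendinous markers were higher, at 502 and 718 CPM. In the nuclei with over 2 times as many endothelial as mural marker UMIs, 89 in Ctrl and 47 in cKO, Col4a1 and Col4a2 were at 839 and 585 CPM (−0.52, −1.08 to 0.02). In those with over 2 times as many mural ones, 38 and 35, they were at 526 and 372 CPM (−0.50, −1.27 to 0.22). There Col4a1 alone was at 306 and 135 CPM (−1.18, −2.49 to −0.05) and Col4a2 alone at 221 and 236 CPM (0.10, −0.95 to 1.09). In the remaining nuclei, with both or neither, 37 and 38, the pair was at 335 and 86.2 CPM (−1.96, −3.73 to −0.49). The fibril chains Col3a1 (140 and 38.1 CPM) and Col1a2 (81.5 and 16.3 CPM) were lower too, beside the lower FAP markers, and Col1a1, with 14 UMIs in Ctrl and 0 in cKO, was at least 2.8-fold lower. Col5a2 (117 and 97.9 CPM), Col7a1 (101 and 103 CPM) and Col8a1 (84.7 and 76.2 CPM) had intervals that held 0, and the part of the marker differences in these results was not tested.

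Myotendinous-like nuclei, at the end of the fibre where it meets the tendon, numbered 106 in Ctrl and 89 in cKO. Their 8 myotendinous markers were at 2700 CPM in Ctrl and higher, at 3530, in cKO (0.39, 0.24 to 0.53), and their FAP markers at 262 and lower, at 146 CPM (−0.85, −1.49 to −0.24), and the part of both in the results was not tested. The myotendinous markers were also higher in other fibre nuclei, at 843 and 1198 CPM. Col22a1, a collagen of the myotendinous junction, was at 851 CPM (757 to 954, 296 UMIs) for Ctrl and 898 CPM (773 to 1037, 185 UMIs) for cKO, a log2 ratio of 0.08 (−0.20 to 0.35). After thinning to 500 UMIs it was seen in 32.1% of the Ctrl nuclei and 36.0% of the cKO nuclei, against 75.5% and 73.0% before and against 0.315% and 0.284% of thinned other fibre nuclei. Where the class was set by marker UMIs in place of the cluster, which took in 746 and 966 nuclei, the ratio of Col22a1 was −0.74, and with the removed doublets kept it was −0.06. Col24a1, a minor fibrillar collagen, was at 296 and 398 CPM (0.43, −0.01 to 0.86). In 43 Ctrl and 35 cKO nuclei both genes had a UMI. In other fibre nuclei both levels were lower, with Col22a1 at 8.84 CPM in Ctrl and 4.33 in cKO, and Col24a1 at 16.1 and 8.19 CPM. Since those nuclei are many, they held 44.5% of all Col24a1 UMIs, against 47.6% in myotendinous-like nuclei. For Col22a1 the shares were 15.5% and 79.2%.

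The other collagens of the myotendinous-like nuclei had fewer UMIs. Col4a2 was at 147 and 107 CPM (−0.46, −1.25 to 0.29), Col4a1 at 57.5 and 34 CPM (−0.76, −2.24 to 0.54) and Col7a1 at 60.4 and 58.3 CPM. Col13a1, a membrane collagen known from the neuromuscular synapse, was at 71.9 CPM (25 UMIs in 18 nuclei) in Ctrl and lower, at 14.6 CPM, in cKO (3 UMIs in 2 nuclei), a log2 ratio of −2.30 (−4.67 to −0.59). It was the only one of 8 measured members at least 2-fold lower, against 11.6% of genes. The membrane collagen Col23a1, with 3 UMIs in Ctrl and 11 in cKO, was the only one at least 2-fold higher (2.63, 0.71 to 5.11), against 7.48% of genes. No tenocyte marker had a UMI in these nuclei in either library. Cluster 8 of the other fibre nuclei, 130 in Ctrl and 247 in cKO, had 3 of the 8 myotendinous markers detected and stayed unnamed, and Col22a1 was at 18.4 and 5.22 CPM there.

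Neuromuscular-like nuclei, under the nerve contact, were few, with 32 in Ctrl and 37 in cKO, and several collagens were concentrated there. All collagens together were at 2879 CPM (2536 to 3254) for Ctrl and 4624 CPM (4167 to 5118) for cKO. The 10 neuromuscular markers were also higher in cKO, at 4357 and 5331 CPM (0.29, 0.09 to 0.49), and the FAP markers lower, at 373 and 49.6 CPM (−2.91, −4.87 to −1.42), and their part in the results was not tested. Col19a1 was at 869 CPM (77 UMIs in 25 nuclei) in Ctrl and higher, at 1996 CPM, in cKO (161 UMIs in 28 nuclei), a log2 ratio of 1.2 (0.80 to 1.61). Col4a3, a chain of the specialised type IV network, was at 587 in Ctrl and higher, at 955 CPM, in cKO (0.70, 0.18 to 1.24). Its partner Col4a4 had 5 UMIs in Ctrl and 12 in cKO (1.40, −0.21 to 3.26), and Col4a5, the third chain of that network, 5 and 9 (0.98, −0.75 to 2.91). Of 9 measured members, 3 were at least 2-fold higher, against 9.9% of genes, and 1 was at least 2-fold lower, against 10.6%.

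The membrane-anchored collagens of the synapse did not move together. Col13a1 was at 440 CPM in Ctrl and 558 in cKO (0.34, −0.31 to 1.00). Col25a1, which takes part in motor innervation, was at 373 CPM (33 UMIs) for Ctrl and 174 CPM (14 UMIs) for cKO, a log2 ratio of −1.10 (−2.12 to −0.16). Those UMIs lay in 5 Ctrl and 4 cKO nuclei, and 1 nucleus held 50% of the cKO UMIs, so a few nuclei set this value. Col23a1 had 4 UMIs in Ctrl and 23 in cKO (2.66, 1.11 to 4.65), and 1 cKO nucleus held 60.9% of them.

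Col25a1 and Col19a1 mostly marked different nuclei. Col19a1 and Col4a3 occurred together in 17 of 32 Ctrl and 19 of 37 cKO nuclei, and Col19a1 and Col13a1 in 16 and 17. Col19a1 and Col25a1 occurred together in 1 nucleus of each library, while 24 and 27 nuclei held Col19a1 without Col25a1 and 4 and 3 held Col25a1 without Col19a1. The nuclei are too few to tell from this whether the cluster held more than 1 kind.

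**Figure D4:**
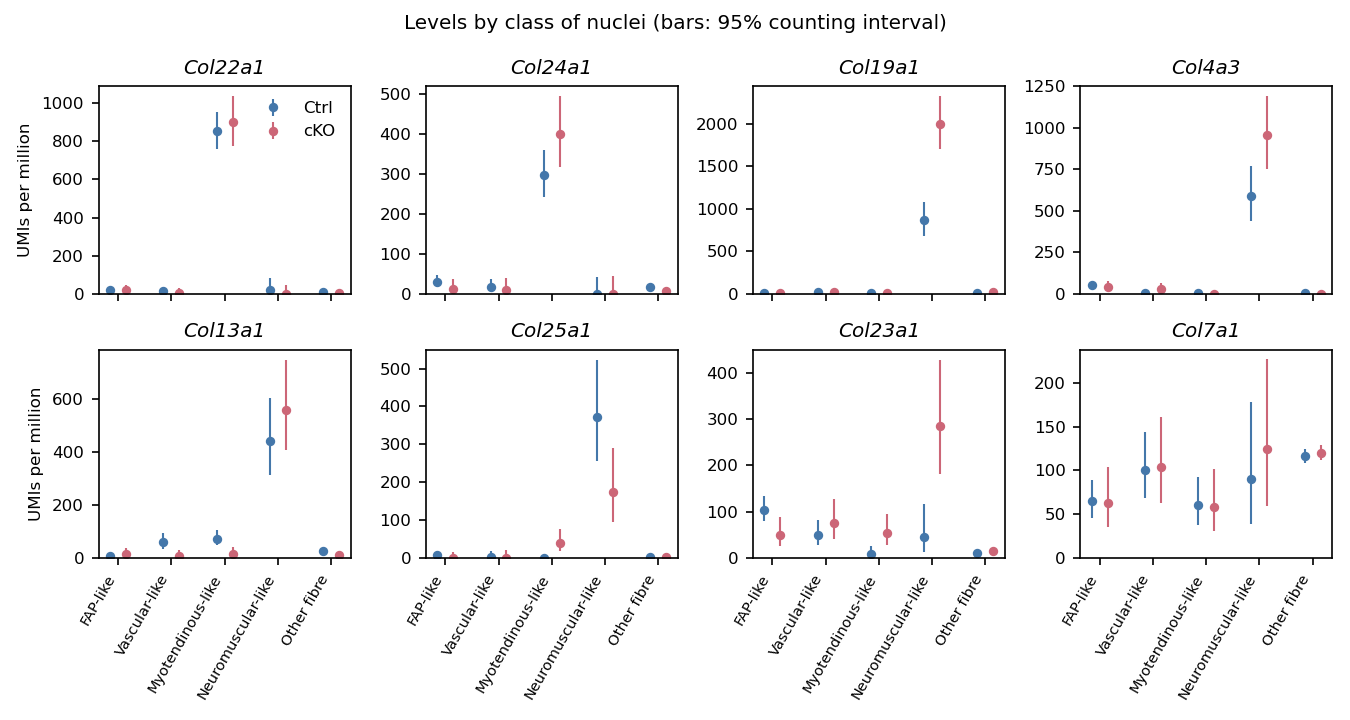
CPM of 8 collagen genes (vertical axes, each with its own scale) in 5 classes of nuclei, for Ctrl and cKO (1 library each, bars are 95% counting intervals). Col22a1 and Col24a1 stand out in myotendinous-like nuclei and Col19a1, Col4a3, Col13a1 and Col25a1 in neuromuscular-like nuclei, where Col19a1 is at 869 in Ctrl and 1996 in cKO, while Col7a1 lies between 58.3 and 124 in every class shown.

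Other fibre nuclei, 2854 in Ctrl and 3172 in cKO, had a low collagen level, 386 CPM (372 to 401) for Ctrl and 301 CPM (288 to 315) for cKO, a log2 ratio of −0.36 (−0.44 to −0.28), or −0.58 without Col7a1. Within the fibre groups by main myosin the ratio was −0.10 (−0.21 to 0.01) in nuclei with Myh4 (378 and 353 CPM) and −0.04 (−0.31 to 0.22) in those with Myh1 (296 and 287 CPM). It was −0.44 (−0.84 to −0.04) in nuclei with Myh2 (247 and 182 CPM), −0.92 (−1.67 to −0.07) in those with Myh7 (425 and 225 CPM, with 18 nuclei and 16 UMIs in Ctrl) and −0.85 (−1.03 to −0.67) in nuclei that could not be assigned (532 and 295 CPM). Without Col7a1 the ratio was −0.53 (−0.69 to −0.38) in nuclei with Myh4 (253 and 175 CPM) and −0.32 in those with Myh1 (226 and 181 CPM). Of 36 measured members, 11 were at least 2-fold lower, against 7.59% of genes, and 3 at least 2-fold higher, against 5.07%. Among those lower were members that FAP-like nuclei held at far higher levels: Col3a1 (log2 −1.75), Col1a2 (−1.13), Col5a1 (−1.22) and Col4a1 (−2.10, from 11.3 to 2.63 CPM). In Ctrl, Col3a1 was here at 0.84% of its FAP-like level, Col1a2 at 0.993%, Col5a1 at 3.41% and Col4a1 at 2.61%, beside the FAP marker values given above. Those 13 markers together were at 242 and 206 CPM in these nuclei (−0.23, −0.33 to −0.13), and without Bicc1 and Smoc2 the 11 others were at 72.1 and 47.9 CPM (−0.59, −0.80 to −0.38). Also lower there were the markers of tenocytes (−0.63, −1.11 to −0.17), endothelium (−0.45, −0.65 to −0.25) and immune cells (−0.92, −1.37 to −0.47). The intervals of mural (−0.05, −0.13 to 0.04) and satellite markers (0.06, −0.14 to 0.25) held 0. RNA freed from other nuclei was not separated from RNA made in fibre nuclei.

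Col7a1 was the member with most UMIs in fibres, and its level over all other fibre nuclei, 117 CPM in Ctrl and 120 in cKO (0.04, −0.10 to 0.18, or 0.14 without Malat1 and mitochondrial UMIs), combined ratios of both signs. In nuclei whose main myosin was Myh4, the fastest type, it was at 125 CPM (1838 nuclei) in Ctrl and higher, at 178 CPM, in cKO (1385 nuclei), a log2 ratio of 0.51 (0.34 to 0.68). In nuclei with Myh1 it was at 69.6 in Ctrl and higher, at 106 CPM, in cKO (0.61, 0.10 to 1.13), and in those with Myh2 it was at 17.8 and 27.1 CPM (0.60, −0.72 to 2.10). Nuclei with Myh7, the slow myosin, numbered 18 in Ctrl and 273 in cKO and had 79.6 (16.4 to 233) and 36.4 CPM (22.8 to 55.2). In nuclei whose myosin UMIs were too few or too mixed to be assigned it was at 144 in Ctrl and lower, at 94.4 CPM, in cKO (−0.61, −0.94 to −0.28). The libraries thus held different mixtures of fibre nuclei: cluster 4, led by Mhrt and Myh6, held 51 Ctrl and 642 cKO nuclei, and its cKO nuclei had Col7a1 at 32.9 CPM. In FAP-like nuclei Col7a1 was at 65.0 and 62.7 CPM, against 117 and 120 CPM in fibres.

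The other fibre collagens went both ways. Col13a1 was at 24.5 in Ctrl and lower, at 11.3 CPM, in cKO (−1.12, −1.53 to −0.72), and within nuclei with Myh4 it was at 25.2 in Ctrl and lower, at 17.8 CPM, in cKO (−0.50, −1.0 to −0.02) and within those with Myh1 at 26.8 and 8.17 CPM (−1.71, −3.20 to −0.41). Col11a2 was at 22.2 in Ctrl and lower, at 11.7 CPM, in cKO (−0.92), but within nuclei with Myh4 it was at 23.3 and 16.7 CPM (−0.48, −1.0 to 0.02). Col24a1 was at 16.1 in Ctrl and lower, at 8.19 CPM, in cKO (−0.97, −1.47 to −0.49), with 33.5 and 12.8 CPM in nuclei with Myh1 (−1.38, −2.55 to −0.31) and 13 and 9.25 CPM in those with Myh4 (−0.49, −1.2 to 0.18). Col9a1, a cartilage collagen, was at 14.6 in Ctrl and lower, at 7.42 CPM, in cKO (−0.98), Col4a2 at 19.2 and 9.74 CPM (−0.98) and Col5a3 at 19.2 and 12.5 CPM (−0.61). Within nuclei with Myh4, Col9a1 was at 17.5 and 12.8 CPM (−0.45, −1.05 to 0.13), Col4a2 at 19.0 and 11.4 CPM (−0.74, −1.36 to −0.15) and Col5a3 at 20.8 and 18.5 CPM (−0.17, −0.67 to 0.32).

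Col19a1 was in other fibre nuclei at 14.5 in Ctrl and higher, at 24.7 CPM, in cKO (0.77, 0.41 to 1.14). It was at 14.9 and 15.3 CPM in nuclei with Myh4 (0.03, −0.54 to 0.59) and at 8.03 and 26.8 CPM in nuclei with Myh1 (1.74, 0.40 to 3.33). In nuclei with Myh7 it had 0 UMIs in Ctrl and 26 in cKO, or 43.1 CPM (28.1 to 63.1). The Ctrl interval, from 18 nuclei, reached 97.9 CPM, so these nuclei show no difference beyond counting error. Its highest levels among the fibre clusters were in cluster 8, led by Ggt5, Ankrd1 and Rrad, at 49.98 and 87.4 CPM, and in cluster 11, led by Plekhh1, Spns3 and Tmem100, at 49.0 and 85.4 CPM. Cluster 11 held 153 Ctrl and 16 cKO nuclei, so its cKO level rests on 5 UMIs. Col4a5 was at 3.21 in Ctrl and higher, at 6.95 CPM, in cKO (1.11, 0.37 to 1.89), Col25a1 at 9 and 20 UMIs (1.36, 0.16 to 2.68) and Col26a1 at 8 and 20 UMIs (1.53, 0.28 to 2.92). For Col26a1, 15 of the 20 cKO UMIs came from cluster 11, and 5 cKO nuclei in all held a UMI.

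**Figure D5:**
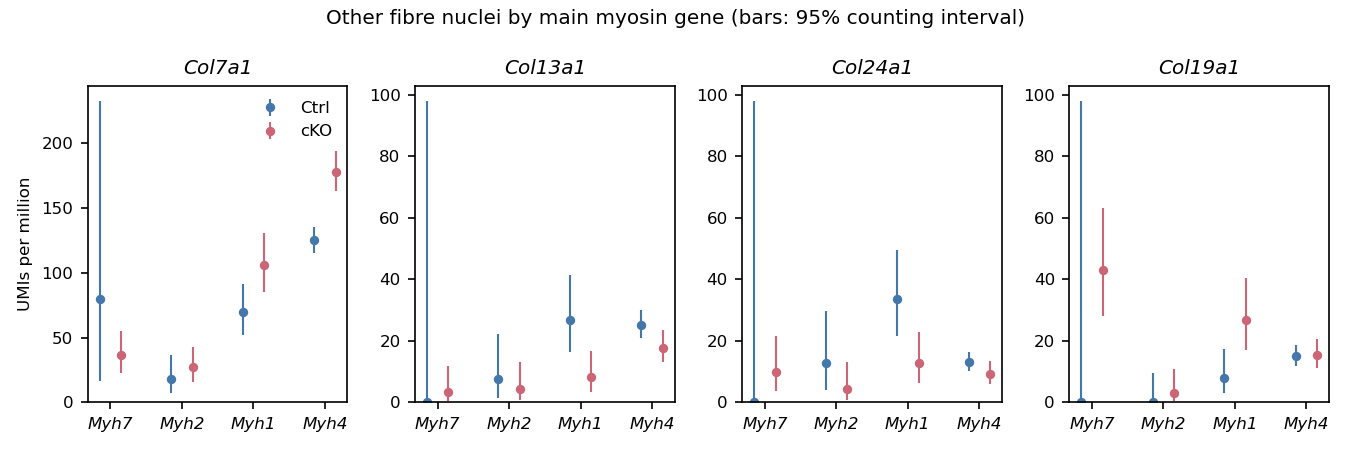
CPM of 4 collagen genes (vertical axes) in other fibre nuclei grouped by their main myosin gene (horizontal axis), for Ctrl and cKO (1 library each, bars are 95% counting intervals). Col7a1 is at 125 in Ctrl and 178 in cKO in nuclei with Myh4, and Col13a1 and Col24a1 are lower in cKO in nuclei with Myh1, while the Myh7 values of Ctrl rest on 18 nuclei.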

How the data were processed

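Single-nucleus RNA was captured with a 10x 3′ kit from nuclei sorted for DAPI, a DNA stain. The kit version differs between the labels (v2) and the methods (v3.1). The authors deposited raw UMI counts per gene and barcode, made with Cell Ranger 3.1.0 on mm10 with default settings, which in that version do not count introns. The annotation release, and whether the reference took in introns, are not given in the sources used here. Sample titles name 1 mouse, while the protocol states 3 pooled muscles per library.

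Of 3863 and 3994 barcodes, nuclei with at least 100 genes, 500 UMIs and at most 10% mitochondrial UMIs were kept. Scrublet (scanpy 1.11.5, expected rate 0.06) called 0 doublets, so the 8% with the highest scores were removed (307 and 313). Doublet scores and SCTransform (sctransform 0.4.2) used all genes. Collagen genes were left out of the features for integration and clustering (Seurat 5.3.0, resolution 0.8, seed 1). A cluster was named where at least 3 markers, and at least 50% of the list, had 10 UMIs and a 2-fold higher level. The 50% rule and the treatment of lymphatic markers as vascular were chosen after seeing the clusters. UMIs were divided by the class total (CPM). Intervals are exact: Poisson for CPM, binomial for shares, conditional for ratios. A class was called a member's highest only with 5 or more of its UMIs over both libraries. A gene at 0 in 1 library was set to a floor of 3 UMIs. A nucleus was given its main myosin at 3 or more UMIs and 60% of them. Thinning to 500 UMIs left out 0 nuclei. Members were named by level, by ratio and by known place; neuromuscular-like nuclei and the myosin groups were added later. The members and lists were chosen with earlier results of these data known. Alternatives covered scaling (TMM, edgeR 4.0.16), filters, doublets, resolution, marker-defined classes and left-out nuclei. The script was tested on simulated data.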

Additional observations from a re-analysis of the deposited data

Results flagged for a closer look

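For 2 members the ratio of cKO over Ctrl had opposite signs in different classes of nuclei with counting intervals that left out 0 on both sides, from 1 library per group. Col25a1 had a log2 ratio of 1.36 in other fibre nuclei, from 9 UMIs in Ctrl and 20 in cKO, and of −1.10 in neuromuscular-like nuclei, from 33 and 14. Col23a1 had a log2 ratio of 2.63 in myotendinous-like nuclei, from 3 and 11 UMIs, of 2.66 in neuromuscular-like nuclei, from 4 and 23, and of −1.06 in FAP-like nuclei, from 61 and 12. In neuromuscular-like nuclei 1 nucleus held 60.9% of the 23 cKO UMIs. In FAP-like nuclei 39 of the 61 Ctrl UMIs lay in nuclei with a tenocyte marker UMI, and without those nuclei Col23a1 was at 50.6 CPM in Ctrl and 50.9 in cKO. The difference between classes was not tested for either gene.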

How the results depend on the processing

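Alternatives were run for the values given here, not for each member. Among these, Col22a1 was the one whose direction turned. Of the planned values 34 stayed within the counting interval (for medians, within 0.1) and 21 did not, and of those added after seeing the data 14 and 9. The log2 ratio of all collagen UMIs over all nuclei (−0.86) was −0.73 with TMM scaling, −0.76 without Malat1 and mitochondrial UMIs, −0.81 with nuclei of 1000 UMIs or more, −0.94 with doublets kept, −0.99 with equal weight per nucleus and −1.02 without Col7a1. In FAP-like nuclei (−0.65) it was −0.39 without nuclei with a tenocyte marker UMI, −0.42 with doublets kept and −0.55 with equal weight. In other fibre nuclei (−0.36) it was −0.28 with TMM, −0.26 without Malat1 and mitochondrial UMIs, −0.49 with doublets kept and −0.58 without Col7a1. The share of collagen UMIs in FAP-like nuclei was 49.2% in Ctrl with 1000 UMIs or more, 49.5% with classes set by marker UMIs, 53.5% with doublets kept, 53.7% at resolution 0.3 and 52.7% at 0.5, and 28.5% in cKO with 1000 UMIs or more and 32.0% at resolution 0.3. The median member over all nuclei (−0.94) was −0.80 with TMM and −0.84 without Malat1 and mitochondrial UMIs. The median member in FAP-like nuclei (−0.57) was −0.33 without tenocyte marker nuclei, −0.44 with members of 1 UMI or more, −0.45 with 1000 UMIs or more and with doublets kept, −0.72 without immune marker nuclei, and −0.73 without Pi16 or Dpp4 nuclei and with classes set by marker UMIs. Col22a1 in myotendinous-like nuclei (0.08) was −0.74 where the class was set by marker UMIs, which took in 746 and 966 nuclei, and −0.06 with doublets kept. Col4a1 and Col4a2 in vascular-like nuclei (−0.80) ranged from −0.44, with classes set by marker UMIs, to −1.17, with the collagen genes among the clustering features. The causes were not tested. TMM moved all genes of a class alike, by 0.14 over all nuclei and by 0.25 in vascular-like nuclei, and was not run in neuromuscular-like nuclei. With TMM the intervals of Col7a1 and Col4a5 over all nuclei and of Col24a1 in myotendinous-like nuclei lay above 0, as did those of Col8a1 and Col23a1 in other fibre nuclei, while those of Col5a3, Col6a3 and Col14a1 in vascular-like nuclei, Col20a1 over all nuclei, and Col6a2 and Col20a1 in other fibre nuclei came to hold 0. Without Malat1 and mitochondrial UMIs the same intervals moved, except that Col6a3 in vascular-like nuclei still lay below 0 and that Col7a1 in other fibre nuclei (0.14, 0.0004 to 0.28) also lay above 0. A resolution above 0.8 was not run. No paired analysis was possible because each group has 1 library, which also means that animals, library preparation and genotype cannot be told apart.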

Other observations

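The smallest classes held collagens too, on few UMIs. In adipocyte-like nuclei, 7 in Ctrl and 9 in cKO, the UMIs of Col4a1 numbered 21 for Ctrl against 5 for cKO, and those of Col4a2 numbered 17 against 2. In satellite-like nuclei, 22 in Ctrl and 10 in cKO, Col19a1 had 7 and 6 UMIs.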
